A study of Mus musculus with 2 samples.

Results

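The messages of 9 integrin subunits and of the adhesion ligand Icam1 were measured in cytosolic RNA of mouse macrophages. The 10 genes were taken by symbol (Itgam, Itgal, Itgax, Itgb2, Itga4, Itga5, Itgav, Itgb1, Itgb3 and Icam1), and each matched 1 gene among 55536 annotated genes and had 2 to 9 annotated transcripts, 47 in all. Integrins are pairs of an alpha and a beta subunit that span the cell membrane, bind ligands on other cells or in the matrix, and link them to actin inside the cell. They shift between a bent form of low affinity and an extended form of high affinity when talin and kindlin bind the tail of the beta subunit. The beta2 integrins, which share the subunit Itgb2, belong to leukocytes, where they serve firm adhesion, crawling and the uptake of particles coated with complement, and Icam1 is one of their ligands.

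The cells were bone-marrow-derived macrophages, primary cells of C57BL/6J mice, with sex and age not collected. They were exposed for 12 h to lipid A, the part of lipopolysaccharide that TLR4 senses, at 100 ng/ml, kept without it for 12 h and exposed again at 100 ng/ml for 75 min. Both libraries, biological replicates 1 and 2, belong to this 1 group, and untreated cells were not analysed here, so no level stands for a response to lipid A. One donor code is given for both, possibly that of the strain, and nothing in the labels says whether they came from separate animals. Differences between them may therefore be technical, and no p-value below rests on a spread measured between animals or cultures.

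Replicates 1 and 2 held 64187219 and 49429864 expected counts on annotated genes. Levels are given in TPM, a share of a library's transcripts corrected for length. Detection meant that neither replicate fell below 1 TPM, which held for 9302 genes. Transcripts were estimated in 2 ways, from reads aligned to the transcriptome (alignment-based, as are the gene levels) and from the reads directly (read-based). Protein-coding genes took 29.9% and 26.2% of the TPM of replicates 1 and 2, and the 10 genes together 0.0412% and 0.0473%. The macrophage label was borne out by the markers: all 8 macrophage markers were above 10 TPM in both replicates and summed to 5108 and 5634 TPM. Summed levels of the other marker lists in replicates 1 and 2 were 5.73 and 12.6 TPM for neutrophils, 17.0 and 14.2 TPM for T and natural killer cells, and 1.07 and 1.86 TPM for B cells. They were 0.230 and 0.420 TPM for dendritic cells, 88.4 and 71.7 TPM for megakaryocytes and platelets, and 6.06 and 4.92 TPM for endothelium. Of these, Cd4 gave 16.7 and 14.1 TPM of the T cell sum and Pf4 gave 88.3 and 71.4 TPM of the platelet sum, while the defining markers Ly6g of neutrophils and Gp9 of platelets had no count in either replicate and Cd3e of T cells had 1 count in replicate 1.

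Icam1 stood highest of the 10 genes, followed by the beta subunits Itgb2 and Itgb1, the alpha subunits Itga5, Itgam, Itga4, Itgal and Itgav, and then Itgb3 and Itgax, which were not detected. The 8 detected genes had a median of 36.4 TPM, against 7.54 TPM over all detected genes. Of the 9 neighbouring pairs in this order, 5 kept it in both replicates with no overlap of their values. The other 4 pairs, Itgb2 with Itgb1, Itgam with Itga4, Itgal with Itgav, and Itgb3 with Itgax, exchanged places between the replicates, so their order was not settled by these data. The widest step was between Itgav and Itgb3, whose means were 51.4-fold apart.

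**Figure D1:**
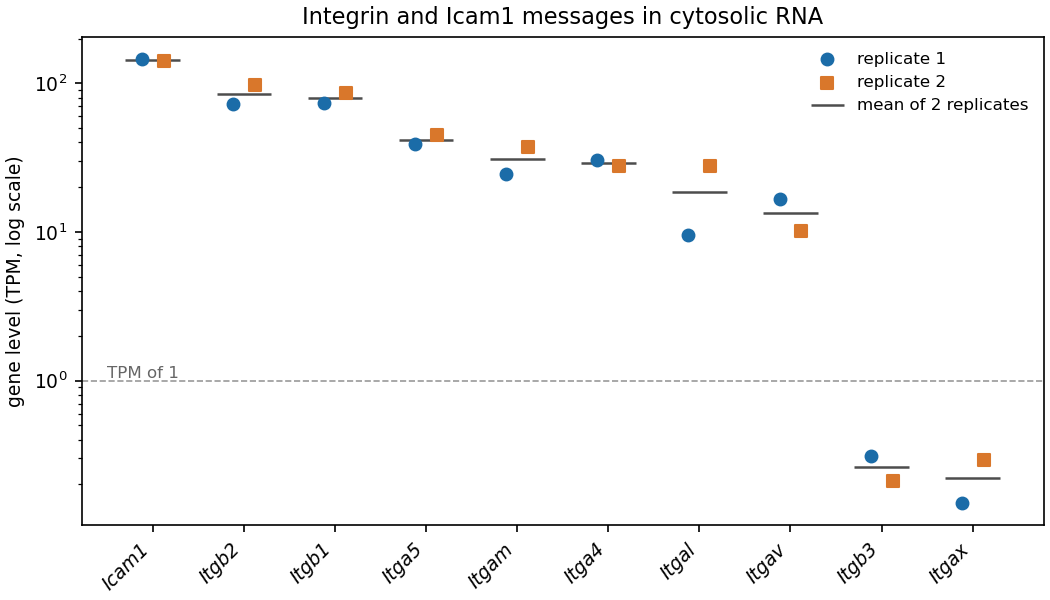
Gene levels (TPM, log scale) of Icam1 and the 9 integrin subunits, ordered by mean, with a point for each of the 2 replicates and a bar for their mean; the dashed line marks a TPM of 1. The 8 genes from Icam1 to Itgav lie between 9.61 and 146 TPM, and Itgb3 and Itgax lie at or below 0.310 TPM.

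Itgb2, the shared beta2 subunit (CD18) without which none of the beta2 integrins reaches the surface, had 72.2 and 98.0 TPM in replicates 1 and 2, a mean of 85.1 ± 18.3 (SD, n = 2). The level was exceeded by 567 detected genes. Itgb2 lies on chr10:77530252-77565708 (plus strand of mm10). The full transcript, of 16 exons, carried 92.21% and 95.71% of the gene's TPM in the alignment-based table. Another, here called the skipping transcript, is annotated as a target of nonsense-mediated decay. It skips exon 12 (245 bases, chr10:77559479-77559723), and its reading frame, 1440 bases against 2310 bases in the full transcript, ends 28 bases after the new junction. The coding sequences of both around this junction, from the GENCODE M21 transcripts, are shown because this junction separates the message for the full protein from the skipping transcript. Capitals mark the first bases of exon 12, which the skipping transcript lacks, and the genomic spans are chr10:77558110-77559508 and chr10:77558110-77560177.
Itgb2 full transcript: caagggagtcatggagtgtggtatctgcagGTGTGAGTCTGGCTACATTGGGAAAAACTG
Itgb2 skipping transcript: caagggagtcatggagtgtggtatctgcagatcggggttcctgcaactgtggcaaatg
The read-based table gave the skipping transcript 0.72% and 0.37% of the gene's TPM in replicates 1 and 2, and the alignment-based table gave it 4.75% and 2.44%. The decay form was thus a small share in both tables, with a size that depended on the table.

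Itgam, the alpha subunit CD11b that with Itgb2 forms the complement receptor Mac-1, had 24.4 and 37.2 TPM in replicates 1 and 2, a mean of 30.8 ± 9.08 (SD, n = 2). It lies on chr7:128062640-128118491 (plus strand). Its message came as a mixture of transcripts that differ by 3 coding bases. Itgam-203, without the 3 bases, led with 61.59% and 58.74% of the gene's TPM, and Itgam-201, with them, followed with 36.82% and 38.60%. The 3 bases stand at the start of exon 14 of 30 (chr7:128101634-128101636). The stretch chr7:128101527-128101666 is shown with its intron removed, and capitals mark the 3 bases.
Itgam-201: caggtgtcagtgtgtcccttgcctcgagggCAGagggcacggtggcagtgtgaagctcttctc
Itgam-203: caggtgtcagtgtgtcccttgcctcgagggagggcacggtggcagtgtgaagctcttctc
Taking all transcripts with the 3 bases together, their share was 35.8% and 37.0% in the read-based table and 36.9% and 38.9% in the alignment-based table. These 4 values differed little between replicates and between tables. An overlapping gene on the same strand, Gm49368, shares 3450 of the 4649 bases of Itgam-203 (74.2%), so that reads of either could have been given to the other, and the Itgam level is uncertain to an extent not measured here. The authors' estimates gave Gm49368 74.4 and 65.0 expected counts, against 12015 and 14906 for Itgam.

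Itgal, the alpha subunit CD11a of the Icam receptor LFA-1, had 9.61 TPM in replicate 1 and 27.6 TPM in replicate 2, a mean of 18.6 ± 12.7 (SD, n = 2), the widest relative gap among the detected genes of the set. The quantifier's own intervals, deposited with the values, were 9.176 to 10.05 TPM in replicate 1 and 26.67 to 27.99 TPM in replicate 2, with a wide gap between them. Itgal lies on chr7:127296260-127335138 (plus strand). Like Itgam it had a pair of transcripts that differ by 3 coding bases, here at the end of exon 18 of 31 (chr7:127317364-127317366), and it also had a shorter coding form, Itgal-203. That form begins in a first exon of its own (103 bases, chr7:127309518-127309620, 19 of them coding), joins exon 12 and lacks the first 11 exons of Itgal-201, which leaves 2295 coding bases against 3486 (65.8%). The first pair shows chr7:127317334-127321924 spliced, with the 3 bases in capitals, and the last line shows the start of the Itgal-203 reading frame (chr7:127309602-127310214, spliced) with the bases of its own exon in capitals.
Itgal-201: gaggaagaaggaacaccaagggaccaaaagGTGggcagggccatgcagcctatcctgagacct
Itgal-202: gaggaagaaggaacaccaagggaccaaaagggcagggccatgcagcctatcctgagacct
Itgal-203: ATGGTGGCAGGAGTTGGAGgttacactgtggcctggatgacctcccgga
Itgal-201 led in each table and replicate, with 49.73% and 49.47% of the gene's TPM in the read-based table and 53.09% and 55.61% in the alignment-based table. The other transcripts were divided differently by the tables. Itgal-202 took 39.19% and 42.88% read-based against 13.14% and 14.75% alignment-based, and Itgal-203 took 3.90% and 3.79% read-based against 28.73% and 27.05% alignment-based. The share of transcripts without the 3 bases was nevertheless close, at 45.5% and 48.4% read-based and 43.7% and 43.3% alignment-based, because Itgal-202 and Itgal-203 both lack them. Whether Itgal-203 is a minor or a sizeable form was not resolved by these tables.

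Itgax, the alpha subunit CD11c that marks many dendritic cells and forms a further complement receptor with Itgb2, had 0.150 and 0.290 TPM in replicates 1 and 2, a mean of 0.220 ± 0.0990 (SD, n = 2). These rest on 64 and 101 expected counts. The gene was listed below the detection level in both replicates, and the deposited intervals of 0.1416 to 0.4002 TPM in replicate 1 and 0.2765 to 0.6718 TPM in replicate 2 overlapped. Itgax lies on chr7:128129547-128150657, on the same chromosome and strand as Itgam, and all its counts went to 1 of its 4 transcripts, Itgax-201.

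Among the alpha messages that pair with Itgb2, Itgam made up 71.4% in replicate 1 and 57.2% in replicate 2, Itgal 28.1% and 42.4%, and Itgax 0.439% and 0.445%. Itgam exceeded Itgal 2.52-fold in replicate 1 and 1.35-fold in replicate 2, so the direction was the same in both but the size was not, with a mean log2 ratio of 0.88 ± 0.64 (SD, n = 2; TPM plus 0.1 here and in the other log2 ratios of levels). Itgam exceeded Itgax by a log2 ratio of 6.60 ± 0.02, a value set in part by the constant added to the low Itgax level. The 3 alpha messages together gave 34.2 TPM against 72.2 TPM of Itgb2 in replicate 1, and 65.1 against 98.0 TPM in replicate 2, which is 47.4% and 66.4%. The message of the beta2 subunit was therefore higher than the sum of its partners in both replicates, with a log2 ratio of alpha to beta of -0.83 ± 0.34. These are messages, and protein was not measured.

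**Figure D2:**
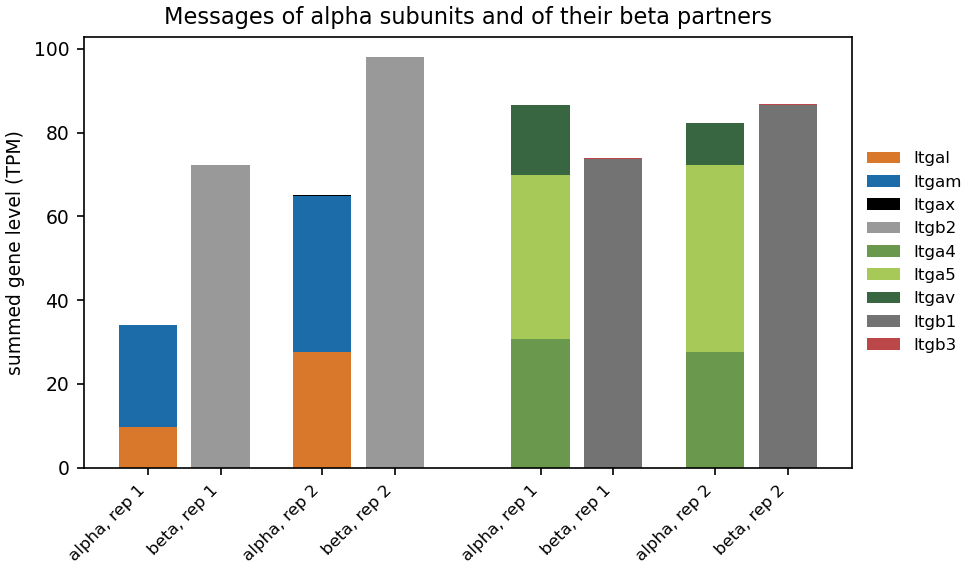
Summed gene levels (TPM) of alpha subunits and of their beta partners in each replicate, with Itgal, Itgam and Itgax beside Itgb2 at left and Itga4, Itga5 and Itgav beside Itgb1 and Itgb3 at right. The beta2 alpha bars reach 34.2 and 65.1 TPM, below the Itgb2 bars of 72.2 and 98.0 TPM, whereas at right the alpha bars of 86.5 and 82.4 TPM stand near the beta bars of 73.9 and 86.9 TPM.

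Itgb1, the beta1 subunit that most cells use for binding to matrix, had 73.6 and 86.7 TPM in replicates 1 and 2, a mean of 80.2 ± 9.31 (SD, n = 2). It lies on chr8:128685654-128733200 (plus strand). Its level was close to that of the leukocyte subunit Itgb2, with a log2 ratio of Itgb2 to Itgb1 of -0.03 in replicate 1 and 0.18 in replicate 2, a mean of 0.07 ± 0.14 that is smaller than its spread. Itgb3, the beta3 subunit that pairs with Itgav and, on platelets, with Itga2b, had 0.310 and 0.210 TPM on 195 and 109 expected counts, a mean of 0.260 ± 0.0707. It lies on chr11:104608000-104670476 (plus strand). Itgb2 exceeded it by a log2 ratio of 7.46 in replicate 1 and 8.31 in replicate 2, a mean of 7.88 ± 0.60.

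Of the alpha subunits that pair with Itgb1, Itga5, which with it forms the main fibronectin receptor, was the highest, at 39.2 and 44.6 TPM in replicates 1 and 2, a mean of 41.9 ± 3.78 (SD, n = 2). It lies on chr15:103344286-103366763 (minus strand) and holds the gene of the microRNA Mir6963, which had no count. Itga4, which binds Vcam1 and fibronectin, had 30.7 and 27.7 TPM, a mean of 29.2 ± 2.10, the narrowest relative spread among the integrin subunits. It lies on chr2:79255426-79333123 (plus strand), where its end overlaps Cerkl on the opposite strand, at 1.87 and 0.730 TPM. Strandedness is not given in the sources used here, so reads in the overlap cannot be assigned to either with certainty, as also holds for Icam1 and Itgav below.

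Itgav, the alphav subunit of vitronectin receptors, which bind Arg-Gly-Asp motifs and the bridging protein Mfge8 on dying cells, had 16.6 TPM in replicate 1 and 10.1 TPM in replicate 2, a mean of 13.4 ± 4.59 (SD, n = 2). Of the detected subunits Itgav and Itga4 had the lower TPM in replicate 2, and the gap was wider for Itgav. It lies on chr2:83724397-83806916 (plus strand), with 2 noncoding genes on the opposite strand inside it, each at 0.110 TPM or less in both replicates. The 3 alpha genes Itga4, Itga5 and Itgav together gave 86.5 TPM against 73.9 TPM of Itgb1 and Itgb3 in replicate 1, and 82.4 against 86.9 TPM in replicate 2. The log2 ratio, 0.23 in replicate 1 and -0.08 in replicate 2, averaged 0.08 ± 0.22 and had no fixed sign. Itga4 and Itgav also pair with beta subunits outside this sum, Itgb7, Itgb5, Itgb6 and Itgb8 among them. Itgb1 likewise pairs with alpha subunits outside it, among them Itga6 at 11.6 and 9.70 TPM in replicates 1 and 2. The ratio and its sign therefore hold for the summed genes only.

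Icam1, an immunoglobulin-type membrane protein that LFA-1 and Mac-1 bind and a known target of NF-kappaB, had 146 and 141 TPM in replicates 1 and 2, a mean of 143 ± 3.60 (SD, n = 2). Of all detected genes 323 stood above it. The intervals deposited for it, 142.7 to 145.5 TPM in replicate 1 and 137.1 to 140.3 TPM in replicate 2, lay just below the deposited values themselves. Icam1 lies on chr9:21015985-21028817 (plus strand), has 7 exons, and its end overlaps the antisense gene Gm47079, which had 0.03 and 0.05 TPM. The full transcript held 99.67% and 99.30% of its TPM, and a transcript that keeps an intron held 0.33% and 0.70%. Set against its receptors, with 0.1 added to each TPM, the Icam1 message was 15.0-fold that of Itgal in replicate 1. In replicate 2 it was 5.08-fold, and the mean log2 ratio was 3.13 ± 1.10. Over Itgam, with the same constant, it was 5.95-fold in replicate 1 and 3.77-fold in replicate 2, a mean log2 ratio of 2.24 ± 0.47. The ligand message thus exceeded that of each receptor alpha subunit in both replicates, and the replicate gap of the first ratio lay with Itgal, since Icam1 itself differed little.

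The 2 libraries were then compared gene by gene on expected counts scaled by TMM (trimmed mean of M values, a correction of library size), with a two-sided exact binomial test that holds counting error only and compares these libraries, not conditions. A gene was called at a Benjamini-Hochberg adjusted p under 0.05 over 13298 tested genes and a fold of at least 2. Itgal and Itgax were called, both higher in replicate 2, out of 10 genes, where 5.53% of all tested genes were called in either direction and 3.01% higher. All 10 had an adjusted p under 0.05, as did 56.4% of the tested genes, so the fold and not the p decided which were called. By scaled counts 7 of the 10 were higher in replicate 2, as were 45.7% of all tested genes. The 10 genes had a median log2 ratio of 0.30, against -0.04 over all tested genes.

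Itgal had 4788 expected counts in replicate 1 and 11600 in replicate 2, a 3.15-fold difference after scaling (95% exact counting interval 3.04 to 3.26, log2 ratio 1.65) with an adjusted p of at most 1e-300 in the exact binomial test. It was still called by edgeR's exact test at an assumed coefficient of variation of 0.1 (adjusted p 1.2e-12) and of 0.2 (adjusted p 0.0119). Those rules called 3.84% and 1.04% of all tested genes. The call also stood in the read-based counts, with a log2 ratio of 1.60, where 7.33% of 14929 tested genes were called. Fewer cells of a type and less RNA per cell cannot be told apart in such bulk samples.

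Itgax, at 64 and 101 counts, was 2.05-fold higher in replicate 2 (95% exact counting interval 1.48 to 2.85, adjusted p 1.9e-05 in the exact binomial test). It was called with a coefficient of variation of 0.1 (adjusted p 0.0166) and not with 0.2 (adjusted p 0.679, edgeR's exact test). In read-based counts its log2 ratio was 0.92 and missed the fold. The call for Itgax thus rests on few counts and on the assumed spread.

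The other 8 genes lay within 2-fold. Itgam had a log2 ratio of 0.69 (1.61-fold, interval 1.57 to 1.65), Itgb2 0.55 (1.47-fold, 1.44 to 1.49), Itgb1 0.33 and Itga5 0.27. Itgav had -0.64 (0.643-fold, 0.620 to 0.666), Itgb3 -0.46 and Itga4 -0.07. Itgam and Itgb2 were thus on the same side as Itgal, at smaller size, while Itgav was on the other. For Icam1, at 0.04, the sign depended on the scaling: its TPM as deposited was lower in replicate 2, and after rescaling to protein-coding genes it was 487 TPM in replicate 1 and 536 TPM in replicate 2. Itga4 behaved likewise, at 102 and 106 TPM after that rescaling. The alignment-based TPM of detected genes as deposited was shifted by a median log2 ratio of -0.14 in replicate 2. In the read-based TPM as deposited, Itgb1 (42.1 and 37.7 TPM in replicates 1 and 2) and Itga5 (22.7 and 19.6 TPM) were also lower in replicate 2. Itgb2 was nearly level there, at 40.7 and 41.9 TPM. After rescaling to protein-coding genes, read-based Itgb1 was 237 and 326 TPM and Itga5 128 and 170 TPM.

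Among markers of other cells the neutrophil list differed in the same direction as Itgal, and the remaining lists were mixed. Of the neutrophil list 4 of 8 markers could be tested and all 4 were called higher in replicate 2, on few counts. S100a9 had 3.14 and 7.31 TPM in replicates 1 and 2, on 103 and 191 counts. S100a8 had 2.21 and 4.35 TPM, on 66 and 103 counts. Ngp had 24 and 66 counts and Ltf 5 and 16. Camp, not tested, had 6 counts in each replicate, Ly6g had no count, and Mpo and Elane stood at or below 0.0200 TPM. Adgre1, the macrophage antigen F4/80, was called as well, at 358 and 706 TPM, and was the one called of 8 macrophage markers. The dendritic cell marker Flt3 had 0.0100 and 0.0800 TPM and was called on 3 and 26 counts. The other 3 tested dendritic cell markers were not called. In the platelet list Ppbp was called higher on 4 and 19 counts, while the abundant Pf4 had a log2 ratio of -0.10 and the sum was 88.4 and 71.7 TPM in replicates 1 and 2. In the endothelial list Pecam1 was called higher on 154 and 243 counts, while Vwf had a log2 ratio of -0.64 and Kdr -0.05, and the sum was 6.06 and 4.92 TPM. The T and natural killer cell list, whose cells are rich in Itgal, summed to 17.0 and 14.2 TPM, of which Cd4 gave 16.7 and 14.1 TPM. Neither of its 2 tested markers, Cd4 and Lck, was called. Its other markers had too few counts to test, among them Cd8a with 0 and 6, Cd3g with 0 and 3 and Cd3e with 1 and 0. The part of these cells in the levels of Itgal, Itgam, Itgb2 and Itgax was not tested.

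**Figure D3:**
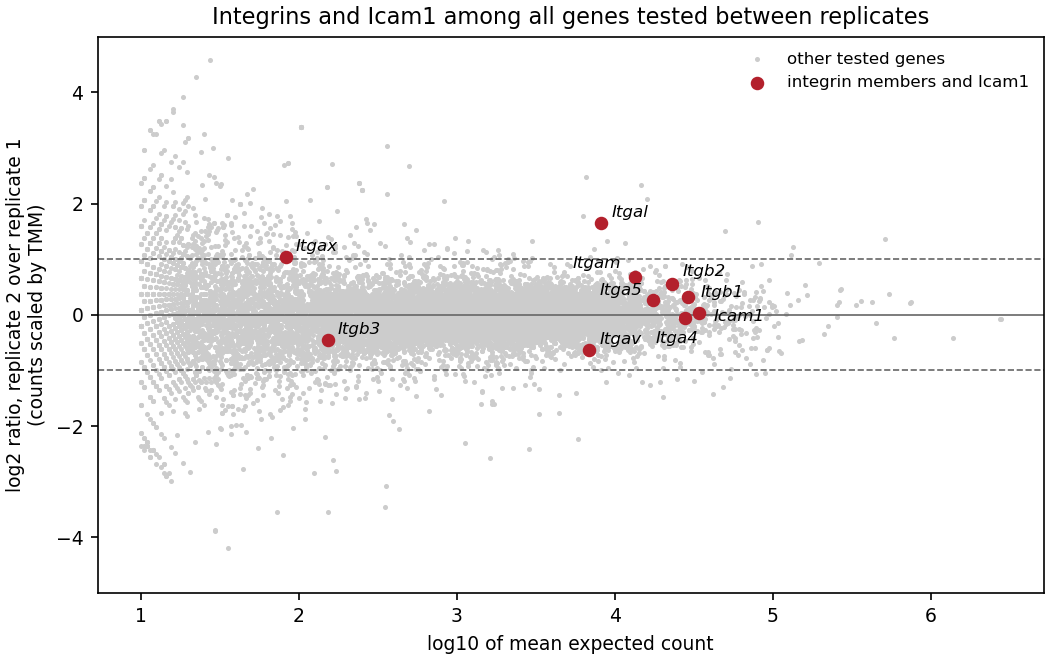
Log2 ratio of replicate 2 over replicate 1 (expected counts scaled by TMM) against the log10 mean expected count for 13298 tested genes, with the 10 genes in red; dashed lines mark 2-fold in either direction. Itgal (1.65) lies above most genes with similar counts, Itgax (1.04) lies just above the upper line among genes of wide scatter, and the other 8 lie between -0.64 and 0.69.

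Transcript make-up divided the set in a simple group and a mixed one. In 7 of the 10 genes (Icam1, Itgb2, Itgb1, Itga4, Itga5, Itgb3 and Itgax) 1 transcript held at least 90% of the gene's TPM in both replicates of the alignment-based table. By this share of TPM the alpha subunits Itgam, Itgal and Itgav were the mixed ones, Itgav through short transcripts with few counts. All 10 had the same leading transcript in both replicates and both tables. Of 47 transcripts 25 are annotated as protein-coding, and 15 held at least 10% of their gene's TPM in both replicates.

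Itgav was led by Itgav-201, of 30 exons, with 76.44% and 71.34% of the gene's TPM read-based and 69.95% and 68.28% alignment-based. Next came short coding fragments. Itgav-206, of 688 bases, had 18.41% and 19.02% read-based and 12.84% and 14.64% alignment-based, and Itgav-205, of 463 bases, had 0.00% in both replicates read-based and 15.23% and 13.07% alignment-based. In replicates 1 and 2 the alignment-based share of Itgav-205 stood on 69.1 and 28.6 expected counts and that of Itgav-206 on 112 and 62.6. Itgav-201 had 8916 and 4356. Read-based, Itgav-206 had 152 and 86.1 counts, against 9424 and 4742 for Itgav-201. A share of TPM weighs a short transcript by its length, and by counts Itgav-201 held nearly all of the gene. Together with Itgal-202 and Itgal-203, Itgav-205 made up the 3 transcripts whose shares lay at least 5 percentage points apart between the tables in both replicates.

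**Figure D4:**
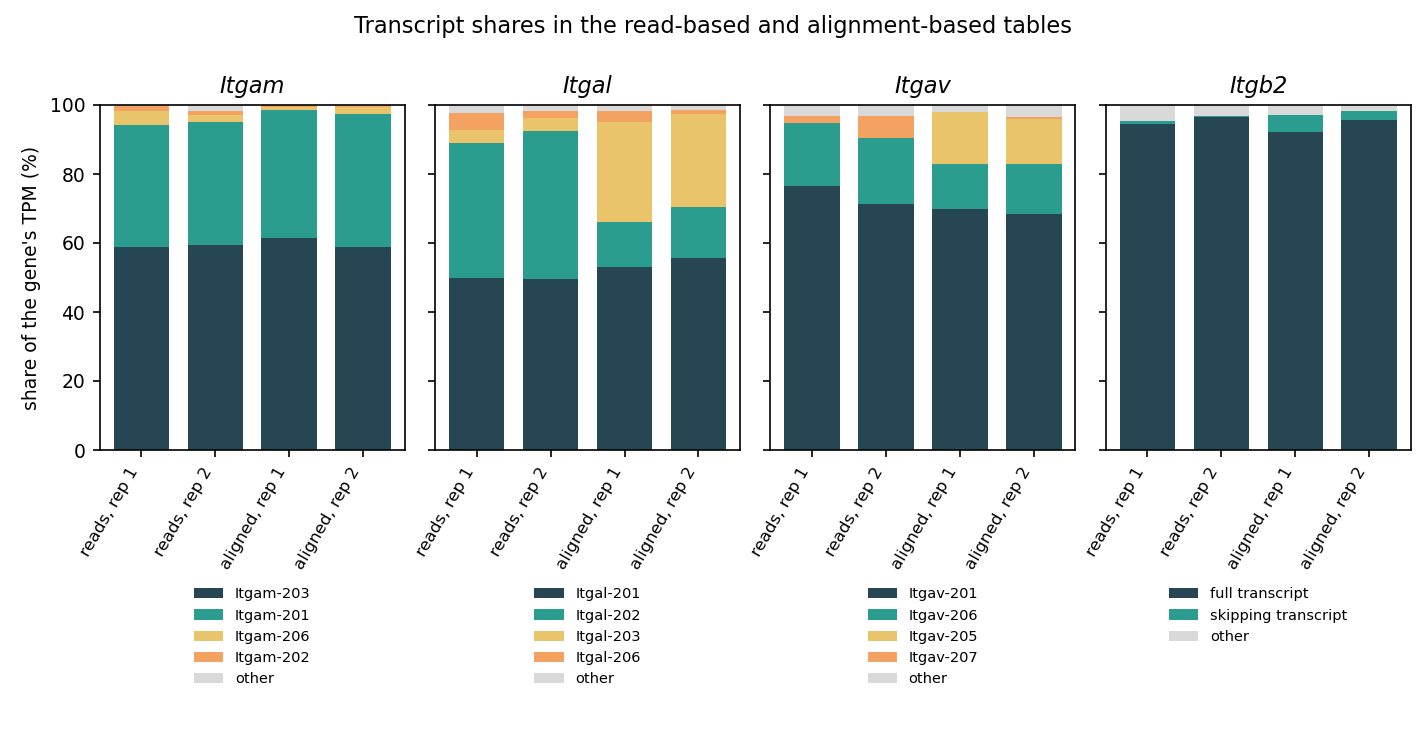
Share of the gene's TPM (%) held by the named transcripts of Itgam, Itgal, Itgav and Itgb2 in each replicate, with the read-based table (reads) left of the alignment-based table (aligned) in each panel and all other transcripts in grey; for Itgb2 the full and the skipping transcript are shown. The Itgam bars are alike in all 4 columns, whereas Itgal-203 is 3.90% and 3.79% read-based and 28.73% and 27.05% alignment-based, and Itgav-205 appears in the alignment-based columns alone.

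At the level of whole genes the tables were close. After each was rescaled to protein-coding genes, the read-based TPM was 0.862 to 1.018 times the alignment-based TPM over the 10 genes and both replicates. None of the 10 was 2-fold apart, a gap found in 0.590% of 8812 detected protein-coding genes. As deposited, the read-based TPM was 0.411 to 0.581 times the alignment-based TPM in all 10.

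A further 18 integrin subunits were mostly at trace level, with 15 below 1 TPM in at least 1 replicate and 5 at a TPM of 0 in both. The highest were Itgb5, a partner of Itgav, at 18.4 and 18.7 TPM in replicates 1 and 2, Itga6, the laminin-binding subunit, at 11.6 and 9.70 TPM, and Itgb7, a partner of Itga4, at 1.54 and 2.40 TPM. Itgb5 thus stood far above Itgb3 as a message for an Itgav partner. Of 8 that could be tested between replicates, Itga9 and Itga2b were called, both higher in replicate 2. Itga9 had 0.670 and 1.56 TPM, and Itga2b 0.0600 and 0.130 TPM on 7 and 19 counts.

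Among 18 ligand genes 2 were at 100 TPM or more in both replicates, 3 between 10 and 100, 2 between 1 and 10, and 11 below. Where the replicates straddled a limit, the lower band was taken. Spp1, osteopontin, a ligand of Itgav and Itga4 integrins, was the highest at 696 and 382 TPM in replicates 1 and 2. Tgfb1, whose latent form alphav integrins bind, had 114 and 103 TPM, and C3, the complement protein whose fragment Mac-1 binds, had 69.6 and 79.7 TPM. Vcam1, the ligand of Itga4 and named after its values were seen, had 7.10 and 8.73 TPM. The 3 fibrinogen chains Fga, Fgb and Fgg and the vitronectin gene Vtn had no count, and fibronectin, Fn1, had 0.0900 and 0.0600 TPM. Fn1 was the one ligand called of 9 tested, lower in replicate 2, on 44 and 15 counts. Of all tested genes 5.53% were called in either direction. Fibronectin, the ligand of the Itga5 receptor, and vitronectin thus had little or no message in these cells.

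Genes for activation and linkage of integrins were widely present. Of 26, 2 were at 100 TPM or more in both replicates, 13 between 10 and 100, 5 between 1 and 10, and 6 below, by the same bands. Fyb, an adaptor that links receptors to integrin activation, led at 317 and 253 TPM in replicates 1 and 2, followed by the small GTPase Rap1b at 214 and 180 TPM and the kinase Syk at 74.6 and 78.6 TPM. The kindlin of blood cells, Fermt3, had 75.3 and 73.4 TPM, whereas the kindlins of other tissues were nearly absent, with no count for Fermt1 and 1 and 3 counts for Fermt2. Talin, Tln1, had 29.9 and 48.0 TPM. Fermt3 and Tln1 were named after their values were seen. None of 23 tested genes of the list was called by the exact binomial test.

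All 4 genes that hold integrins inactive were detected. Filamin A, Flna, which competes with talin for the beta tail, had 31.5 and 54.4 TPM in replicates 1 and 2, Sharpin 33.8 and 23.9 TPM, Dok1 16.5 and 19.1 TPM and Itgb1bp1 14.2 and 8.82 TPM. Of the proteins that tie Icam1 to actin, moesin (Msn) had the highest message at 167 and 174 TPM, radixin (Rdx) had 16.7 and 15.5 TPM and ezrin (Ezr) 7.81 and 6.14 TPM. None of these 7 genes was called between replicates.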

How the data were processed

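Total RNA of the cytosolic fraction, depleted of ribosomal RNA, was sequenced in 2 libraries of 1 group. Per the text deposited beside the tables, features come from mm10 and GENCODE M21; the aligner, the quantifiers and the strandedness were not given in the sources used here. The authors deposited expected counts (alignment-based, per gene and transcript) and estimated counts (read-based, per transcript), both unscaled, per the file headers. The deposited TPM sums to the same total in each table, structured RNAs included, so an abundant short RNA lowers the TPM of other genes. The deposited FPKM is scaled by effective length and mapped fragments. The deposited percent values are each transcript's share of its gene's TPM. The deposited interval bounds of TPM were used as a score of the quantifier's own uncertainty, at a level not stated.

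Levels and ratios used deposited gene TPM with a constant of 0.1 in log2 ratios, which lowers ratios to genes near 0. For tests, expected counts were rounded to whole numbers, spike-ins and transfer RNAs were dropped, library sizes were scaled by TMM (edgeR 4.0.16, R 4.3.3), and genes with a mean count of at least 10 entered a two-sided exact binomial test with Benjamini-Hochberg adjustment. With 1 library on each side edgeR's quasi-likelihood test has no residual degrees of freedom, so its exact test was run at assumed coefficients of variation of 0.1 and 0.2, and DESeq2 1.42.0 gave size factors. Intervals cover counting error only, and the deeper replicate 1 has the smaller error. Transcript sequences and positions were read from the GENCODE M21 files. The members and gene lists were chosen with earlier results of these data known. The text names all 10 genes and, from each other list, at most its top 3 and bottom 2 genes by mean TPM. Exceptions are stated, or are further genes named for their calls or counts. With 2 libraries no search for genes of like pattern was made.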

Additional observations from a re-analysis of the deposited data

How the results depend on the processing

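No paired analysis was possible because both libraries belong to 1 group. The number of the 10 genes called between replicates, 2, became 1 with edgeR's exact test at a coefficient of variation of 0.2 and 1 with read-based counts; in both Itgax was lost (log2 ratio 1.04, adjusted p 0.679, edgeR's exact test, and log2 ratio 0.92, adjusted p 8.7e-05, exact binomial test) and Itgal kept. The log2 ratio of Itgb2 to Itgb3, 7.88, became 6.08 with a constant of 1. That of Itgam to Itgax, 6.60, became 6.23 with read-based TPM, 4.68 with a constant of 1, 7.18 with none and 6.84 with FPKM; with levels this near 0 the constant sets the value. The log2 ratio of replicate 2 to replicate 1 for Icam1, 0.04, became -0.01 with read-based counts (adjusted p 0.329, exact binomial test), and the cause was not tested. With either replicate left out, which with 2 replicates gives only each single value and tests no stability, Itgb2 over Itgb1 ran from -0.03 to 0.18, Itgb2 over Itgb3 from 7.46 to 8.31, Itgam over Itgal from 0.43 to 1.34, Itgam over Itgax from 6.58 to 6.62, the 3 alpha genes over Itgb2 from -1.08 to -0.59, the other alpha genes over Itgb1 and Itgb3 from -0.08 to 0.23, Icam1 over Itgal from 2.35 to 3.91 and Icam1 over Itgam from 1.91 to 2.57. The number detected, 8, was 8 in each replicate alone and 10 by a count of at least 10. Among alternatives that keep both replicates, 41 values of these comparisons stayed within 1 SD or 1.5 times of the value reported, and 57 of the replicate ratios kept direction and call. Precision is limited by 2 libraries, and for Itgax and Itgb3 by counts.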

Other observations

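Itgal differed between the replicates more than nearly all genes of its range. Of 5616 protein-coding genes at a mean of at least 5 TPM, chosen as a comparison after the Itgal value was seen, 3 were at least as far higher in replicate 2, Itgal included. The other two were Slc13a3, a dicarboxylate transporter, at 6.80 and 35.7 TPM in replicates 1 and 2 (log2 ratio of scaled counts 2.48), and Marco, a scavenger receptor of macrophages, at 41.2 and 164 TPM (2.08). As far in the other direction were 5 genes, among them Il10 at 40.6 and 7.23 TPM (-2.41), Cxcl1 at 121 and 24.2 TPM (-2.24) and Nr4a1 at 11.5 and 1.79 TPM (-2.58), and also Gem (-1.78) and Errfi1 (-1.76). Neighbours of Itgal did not share its gap: 11 detected genes within 200 kb had log2 ratios of -0.55 to 0.39, such as Sephs2 at 16.7 and 17.7 TPM and Zfp768 at 2.86 and 2.60 TPM, which lie on either side of it.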
